A study of Mus musculus with 32 samples.

Results

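Ferritin storage and iron sensing were followed through 5 genes, Ftl1, Fth1, Ncoa4, Ireb2 and Fbxl5, chosen by name from the 10052 genes listed in at least 1 of 4 organ tables. The tables set male mice without ketohexokinase (Khk KO) against male wild-type mice (WT) in liver, duodenum, jejunum and ileum, with 4 libraries for each genotype and organ, 32 in all. The series was set up around fructose, ketohexokinase and iron handling, and Khk encodes the enzyme that phosphorylates fructose at the start of its breakdown. Each library holds polyadenylated RNA of an organ. The labels used here give sex, organ and genotype, and do not give age, strain, diet, how the deletion was made, or whether a mouse gave more than 1 organ. They also do not say that each library is a different animal, so the p-values measure the spread between these libraries.

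Ferritin is a hollow shell of light chains (Ftl1) and heavy chains (Fth1) that stores iron inside cells, and the heavy chain carries the site that oxidises iron as it enters. NCOA4 is the receptor that carries ferritin to the lysosome, where the shell is broken down and its iron is released. IRP2, the product of Ireb2, is an RNA-binding protein that in iron-poor cells binds a hairpin called the iron-responsive element and holds back translation of both ferritin mRNAs. FBXL5 is the iron- and oxygen-sensing part of a ubiquitin ligase that marks IRP2 for destruction when iron is plentiful. Much of this control acts on translation and protein stability, which read counts do not measure.

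The hairpin that IRP2 binds is shown here because it is the sequence that links the sensing genes to the storage genes. The pattern searched was a bulged C, an arm of 5 bases, the loop CAGTGN, and another arm of 5 bases able to pair with the first, with G to T pairs allowed. It was looked for on the sense strand of 5′ untranslated regions of at least 17 bases, in GENCODE M21 transcripts on build GRCm38. It was present in 31 of 20597 genes with such a region, which is 0.151%, and in 2 of the 5 genes followed here, Ftl1 and Fth1. A match is a description of the letters and not a measure of binding. In the windows below, 5′ to 3′, the capitals mark the bulged C and the 6-base loop.
Fth1: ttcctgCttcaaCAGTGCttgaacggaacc
Ftl1: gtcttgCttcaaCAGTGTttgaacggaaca
Slc40a1: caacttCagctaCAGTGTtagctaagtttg
The Fth1 window lies at chr19:9982732-9982761 on the plus strand with its bulged C at base 93 of the GENCODE transcript, which starts upstream of the gene start in the tables. The Ftl1 window lies at chr7:45459778-45459807 on the minus strand with its bulged C at base 84 of the transcript. Slc40a1, which encodes the iron exporter ferroportin, is shown for comparison at chr1:45925464-45925493 on the minus strand. The Ftl1 window also occurs letter for letter in Ftl1-ps1, a transcribed copy of Ftl1, at chr13:74406428-74406457 on the plus strand.

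Each table is limited to genes whose unadjusted p was under 0.05 when the authors tested Khk KO against WT. Liver had 6375 such genes, ileum 5187, jejunum 2413 and duodenum 1567. A gene missing from a table therefore had a larger p or was not tested, and its level there was not analysed here. The liver table held all 5 genes. The ileum table held 4, without Fbxl5. The jejunum table held Ftl1 and Ncoa4, and the duodenum table held Ftl1. That makes 12 of 20 gene and organ combinations. The reads of listed genes ranged from 1722220 to 3549978 per duodenum library and from 7505439 to 14331517 per liver library, with jejunum and ileum between 3053896 and 9149003, and the full depth is unknown. As a check of the labels, Khk in the Khk KO libraries was between 4.59% of its WT mean (duodenum) and 11.1% (liver), with no overlap between genotypes in any organ. The hepatocyte gene Ttr had a WT mean of 104344 normalized counts in liver and 70.7 in jejunum. Apoa1, which the hepatocyte list also holds, did not mark liver, with WT means of 176570.3 in liver, 277829.7 in duodenum and 232873 in jejunum. The enterocyte gene Sis was abundant in duodenum and jejunum. Ileum listed 3 of 8 enterocyte genes, Fabp2, Alpi and Apoa4.

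In liver both ferritin chains were lower in Khk KO, the Ncoa4 and Ireb2 means were higher and the Fbxl5 mean was lower, and of these only Fbxl5 kept its sign when the trend with gene length described below was taken out, while taking out the trend with GC content turned Ireb2 alone. Among the 5 genes, 3 passed an adjusted p of 0.05 in the authors' deposited table, where 23.9% of tested genes did so, and 2 did not overlap between genotypes, where 65.0% of the listed genes did not. A refit of the counts with edgeR's quasi-likelihood test called 2 of the 5, Ftl1 and Fth1, against 14.7% of all tested genes. In ileum both chains were lower and Ncoa4 and Ireb2 higher, and the sign changed for Fth1 with the length trend taken out and for Ireb2 with the GC trend taken out. The authors' deposited table called all 4 listed genes in ileum (15.6% of tested genes), as did the edgeR refit (13.9%), and 3 of them did not overlap (66.8% of listed genes). The authors' table called Ncoa4 in jejunum (0.759% of tested genes), and it did not overlap there (56.0% of listed genes). It called none of the members in duodenum (0.224%), where Ftl1 overlapped (45.9% of listed genes did not). The edgeR refit called no member in jejunum or duodenum, where it called 1 gene in each, 0.0101% and 0.0064% of those tested. Unadjusted, edgeR's p was under 0.05 for both members listed in jejunum and for the 1 in duodenum. DESeq2 called 1 in jejunum (Ncoa4, adjusted p of 0.0271) and 0 in duodenum. Over all genes it called 347 of 9881 in jejunum and 37 of 15615 in duodenum.

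**Figure D1:**
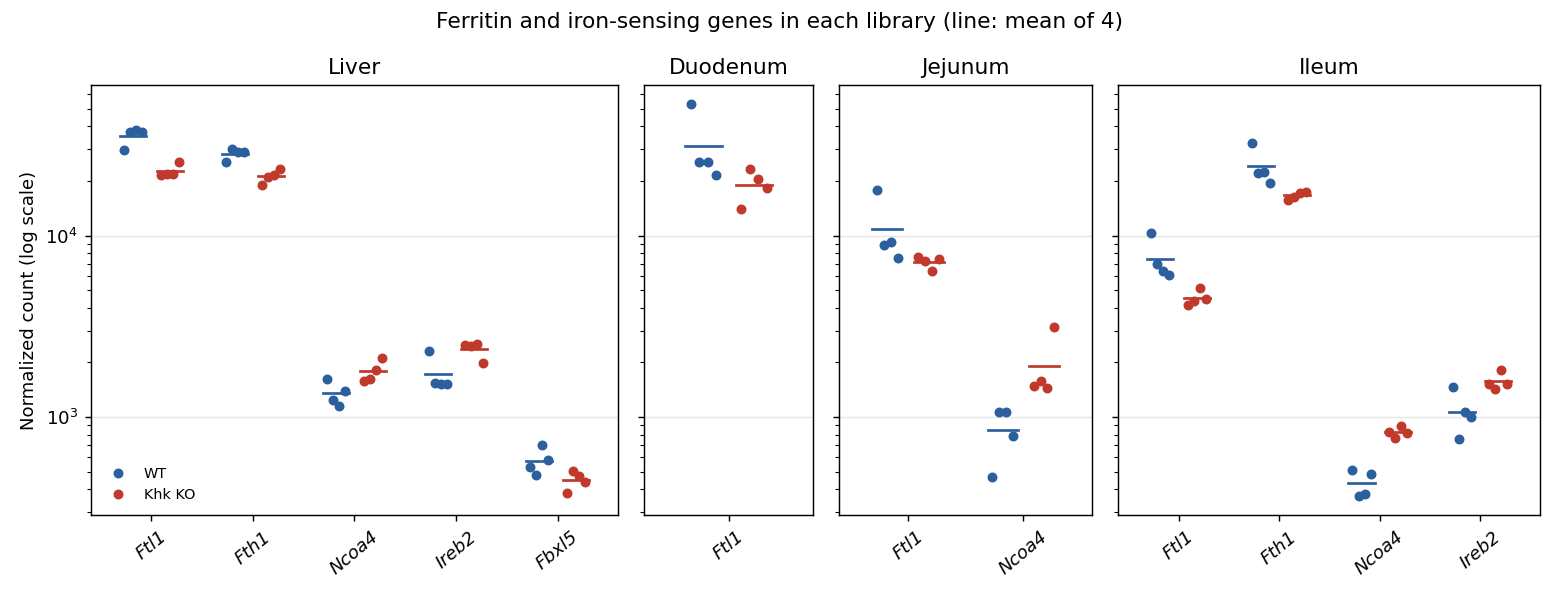
Normalized counts on a log scale for each library, with WT in blue, Khk KO in red and a line at the mean of 4 libraries; genes missing from an organ's table are not drawn. Ftl1 means are lower in Khk KO in all 4 organs and Ncoa4 means are higher in the 3 organs that list it, and with the length trend taken out both change sign in liver, to 0.025 and -0.33 on the log2 scale.

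Ftl1 encodes the light chain, which helps mineralise iron inside the shell. It is identified in the tables as ENSMUSG00000050708, a 1340-base gene on the minus strand of chromosome 7 between 45457944 and 45459884. In liver its normalized counts were 21443, 21853, 21836 and 25510.3 in Khk KO and 29431, 37258, 38121 and 37241 in WT. Every Khk KO library lay below every WT library, and the lowest WT library was replicate 1. The mean was 22660.4 ± 1909 in Khk KO and 35513 ± 4075 in WT (SD, n = 4), so Khk KO held 63.8% of the WT level. The authors' deposited table gave a log2 fold change of -0.65 with an adjusted p of 8.38e-05. The edgeR refit gave -0.62 ± 0.11 (SE) with an adjusted p of 0.0175, and 0.025 with an adjusted p of 1 when corrected for length. With the GC trend taken out it gave -0.37 with an adjusted p of 0.0416. The uncorrected edgeR adjusted p rose above 0.05 without Khk KO replicate 1 (0.0566), Khk KO replicate 2 (0.0676) or WT replicate 4 (0.0529).

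In duodenum Ftl1 was the only member listed. Its normalized counts were 13972, 23205, 20607 and 18244 in Khk KO and 52724, 25277, 25469.6 and 21448 in WT. The genotypes overlapped, and WT replicate 1 was 2.19 times the other WT libraries' mean. The authors' deposited table gave a log2 fold change of -0.72 with an adjusted p of 0.459, and the edgeR refit gave -0.53 ± 0.23 (SE) with an adjusted p of 1. Without WT replicate 1 the refitted value was -0.27, and corrected for length it was -0.21 with an edgeR adjusted p of 1.

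In jejunum the normalized counts of Ftl1 were 7586, 7238, 6359.8 and 7433 in Khk KO and 17874, 8882, 9265 and 7524 in WT. WT replicate 1 again stood highest, at 2.09 times the mean of its group's other libraries, and the lowest WT library lay within the Khk KO range. The log2 fold change was -0.61 with an adjusted p of 0.198 in the authors' deposited table. The edgeR refit gave -0.58 ± 0.21 (SE) with an adjusted p of 0.237, and -0.32 without WT replicate 1. After the length correction edgeR gave -0.031 with an adjusted p of 1.

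In ileum the normalized counts of Ftl1 were 4146, 4362, 5129 and 4476 in Khk KO and 10282, 6964, 6365 and 6044 in WT. Every Khk KO library lay below every WT library, and WT replicate 1 was 1.59 times the average of the remaining WT libraries. The mean was 4528 ± 423 in Khk KO and 7414 ± 1950.0 in WT (SD, n = 4), 61.1% of the WT level. The log2 fold change was -0.71 with an adjusted p of 0.00302 in the authors' deposited table, and -0.69 ± 0.14 (SE) with an adjusted p of 0.0127 in the edgeR refit. Corrected for length, the edgeR value was -0.14 with an adjusted p of 0.981. With the GC trend taken out instead it was -0.22 with an adjusted p of 0.453. Without Khk KO replicate 1 the uncorrected edgeR fit gave an adjusted p of 0.0504.

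Ftl1 levels per gene length fell in the order liver, duodenum, jejunum, ileum in both genotypes. In FPKM, a read count scaled for gene length and library size, the WT mean was 2282 ± 290.3 in liver and 1134 ± 525 in duodenum, against 482 ± 220 in jejunum and 264 ± 63.8 in ileum (SD, n = 4). Neighbouring organs in that order overlapped in WT, in each pair through WT replicate 1 of the lower organ. In Khk KO the means were 1432 ± 114, 690.4 ± 142, 314 ± 23.5 and 162 ± 14.7, and no neighbouring pair of organs overlapped. The organs were normalized in separate tables, so these orders are descriptions without a test.

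Some Ftl1 reads may belong to copies of the gene. Of its possible 50-base reads, 50.9% also occur in transcripts of 15 other genes, most often Ftl1-ps1, which shares 47.3%. On the opposite strand Gm10252 overlaps 26.5% of its exon bases, and on the same strand Gm22133 overlaps 8.13%. Ftl1-ps1 was listed in liver and duodenum. Its mean normalized count in liver was 349 ± 28.1 in Khk KO and 574 ± 92.0 in WT (SD, n = 4), with a log2 fold change of -0.72 and an adjusted p of 0.000549 in the authors' deposited table. Reads given to Ftl1-ps1 were 1.55% ± 0.22 of Ftl1 reads in Khk KO liver and 1.61% ± 0.11 in WT liver (SD, n = 4), so the pair moved in the same proportion within the spread. In duodenum the shares were 2.25% ± 0.0067 and 2.39% ± 0.15 (SD, n = 4).

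Fth1 encodes the heavy chain with the iron-oxidising centre. It is ENSMUSG00000024661, on the plus strand of chromosome 19 between 9982703 and 9985092, with a length of 866 bases in the tables. In liver its normalized counts were 18876, 21142, 21637 and 23158 in Khk KO and 25556, 30063, 28708 and 28756 in WT. Every Khk KO library lay below every WT library, and WT replicate 1 was again the lowest of its group. The mean was 21203 ± 1773 in Khk KO and 28271 ± 1915 in WT (SD, n = 4), 75.0% of the WT level. In the authors' deposited table it had a log2 fold change of -0.42 with an adjusted p of 0.00559, and -0.39 ± 0.097 (SE) with an adjusted p of 0.0283 in the edgeR refit. Corrected for length, the edgeR value turned to 0.31 with an adjusted p of 0.201. With the GC trend taken out instead it was -0.46 with an adjusted p of 0.0224. The uncorrected edgeR fit passed only when WT replicate 1 or WT replicate 3 was the library left out, with adjusted p of 0.0545 to 0.0749 without any other.

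In ileum the normalized counts of Fth1 were 15782, 16378, 17166 and 17399 in Khk KO and 32160.0, 22102, 22468 and 19395 in WT. The genotypes did not overlap, and WT replicate 1 was 1.51 times the average of the other WT replicates. The mean was 16681 ± 742 in Khk KO and 24031 ± 5589.8 in WT (SD, n = 4), 69.4% of the WT level. Fth1 had a log2 fold change of -0.53 with an adjusted p of 0.0196 in the authors' deposited table and -0.51 ± 0.13 (SE) with an adjusted p of 0.0311 in the edgeR refit. The edgeR value was 0.083 with an adjusted p of 1 after the length trend was taken out, and with the trend with GC content taken out instead it was -0.52 with an adjusted p of 0.0384. The uncorrected edgeR fit again passed only without WT replicate 1 or WT replicate 4, and had adjusted p of 0.0543 to 0.0961 without any other library.

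The balance of the chains was compared as the ratio of Ftl1 to Fth1 FPKM within each library, which does not depend on the size factor. In liver the ratio was 0.734, 0.668, 0.652 and 0.712 in Khk KO and 0.744, 0.801, 0.858 and 0.837 in WT. Every Khk KO library lay below every WT library, the closest pair being Khk KO replicate 1 and WT replicate 1. The mean ratio was 0.692 ± 0.038 in Khk KO and 0.810 ± 0.0498 in WT (SD, n = 4). The difference was -0.23 on the log2 scale, with an exact two-sided permutation p of 0.0286, the smallest that 35 splits can give, and 0.0571 after adjustment over the 2 organs. Corrected for length, the difference was -0.29 with the same exact permutation p of 0.0286.

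In ileum the ratio was 0.170, 0.172, 0.193 and 0.166 in Khk KO and 0.207, 0.204, 0.183 and 0.201 in WT. The genotypes overlapped through Khk KO replicate 3 and WT replicate 3. The mean ratio was 0.175 ± 0.0121 in Khk KO and 0.199 ± 0.0106 in WT (SD, n = 4), a log2 difference of -0.18 with an exact two-sided permutation p of 0.0571, also 0.0571 after adjustment. The absolute ratio depends on the 866-base length given for Fth1. GENCODE M21 gives Fth1 3469 exon bases, so the ratio is used here only to compare genotypes within an organ. The length-corrected values of Fth1 and of the ratio rest on the 866 bases as well.

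**Figure D2:**
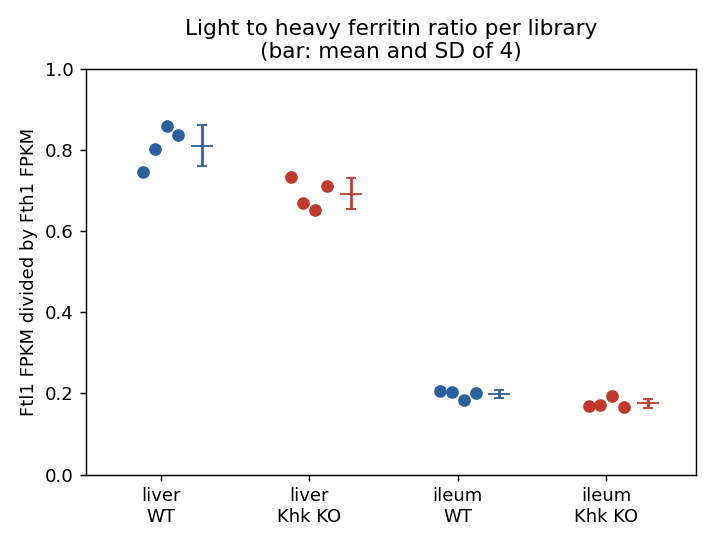
Ratio of Ftl1 FPKM to Fth1 FPKM in each liver and ileum library, with a bar at the mean and SD of 4. Khk KO liver libraries sit between 0.652 and 0.734, below the WT range of 0.744 to 0.858, and the ileum genotypes overlap.

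Ncoa4 encodes the receptor for ferritin breakdown. It is ENSMUSG00000056234, a 9365-base gene on the plus strand of chromosome 14 between 32159865 and 32179855, and 17.9% of its possible 50-base reads also occur in Gm6768. In liver its normalized counts were 1586, 1628, 1827 and 2118 in Khk KO and 1629.7, 1246, 1148 and 1395 in WT. The genotypes overlapped, because WT replicate 1 lay above Khk KO replicates 1 and 2. Ncoa4 had a log2 fold change of 0.40 with an adjusted p of 0.0552 in the authors' deposited table and 0.43 ± 0.16 (SE) with an adjusted p of 0.0900 in the edgeR refit. Corrected for length, the edgeR value was -0.33 with an adjusted p of 0.184. Without WT replicate 1 the uncorrected edgeR fit gave 0.49 with an adjusted p of 0.0150.

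In jejunum the normalized counts of Ncoa4 were 1481, 1578, 1447 and 3121 in Khk KO and 468, 1068, 1072 and 787 in WT. Every Khk KO library lay above every WT library, and Khk KO replicate 4 was 2.08 times the mean of the other Khk KO libraries. The means were 1907 ± 811 in Khk KO and 849 ± 287 in WT (SD, n = 4). The log2 fold change was 1.17 with an adjusted p of 0.0307 in the authors' deposited table. The edgeR refit gave 1.13 ± 0.33 (SE) with an adjusted p of 0.237, and 0.82 without Khk KO replicate 4. Corrected for length, it gave 0.74 with an adjusted p of 0.531.

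In ileum the normalized counts of Ncoa4 were 832, 766, 898 and 818 in Khk KO and 513, 369, 379 and 483 in WT. Every Khk KO library lay above every WT library, with a gap between 513 and 766. The mean was 828 ± 54.6 in Khk KO and 436 ± 72.9 in WT (SD, n = 4), so Khk KO held 189.9% of the WT level. The gene rose by a log2 fold change of 0.93 with an adjusted p of 2.47e-06 in the authors' deposited table and 0.93 ± 0.12 (SE) with an adjusted p of 0.00357 in the edgeR refit. Corrected for length, the edgeR value was 0.40 with an adjusted p of 0.133, and 0.50 with an adjusted p of 0.0131 when WT replicate 1 was left out as well. With the GC trend taken out it was 0.56 with an adjusted p of 0.0202. Of the members called in ileum, Ncoa4 was the one that passed edgeR's threshold in each of the 8 fits that left out 1 library, with adjusted p from 0.00108 to 0.0190.

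Ncoa4 levels per gene length were highest in liver, with a WT mean of 12.4 ± 1.74 FPKM, then jejunum at 5.32 ± 1.74 and ileum at 2.23 ± 0.326 (SD, n = 4). The lowest WT jejunum library, at 3.02, stood above the highest WT ileum library, at 2.55, and no neighbouring organs overlapped in WT. In Khk KO the means were 16.2 ± 2.15 in liver and 4.25 ± 0.281 in ileum (SD, n = 4), and jejunum ran from 9.12 to 19.7, overlapping liver through replicate 4.

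Ireb2 encodes IRP2. It is ENSMUSG00000032293, a 9479-base gene on the plus strand of chromosome 9 between 54863789 and 54912530. In liver its normalized counts were 2503, 2454, 2514 and 1994 in Khk KO and 2316, 1534, 1528 and 1525 in WT. In each genotype 3 libraries lay close together, and the groups overlapped because WT replicate 1 exceeded Khk KO replicate 4. Ireb2 had a log2 fold change of 0.46 with an adjusted p of 0.0430 in the authors' deposited table and 0.48 ± 0.17 (SE) with an adjusted p of 0.0847 in the edgeR refit. Without WT replicate 1 the edgeR refit gave 0.62 with an adjusted p of 0.00203, while with the length trend or the GC trend taken out of all 8 libraries it gave -0.28 and -0.065.

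In ileum the normalized counts of Ireb2 were 1527, 1438, 1817 and 1514 in Khk KO and 1464, 757, 1070.5 and 999.9 in WT. The groups overlapped only through WT replicate 1, which lay above Khk KO replicate 2. The mean was 1574 ± 167 in Khk KO and 1073 ± 293 in WT (SD, n = 4), 146.7% of the WT level. It had a log2 fold change of 0.55 with an adjusted p of 0.0410 in the authors' deposited table and 0.57 ± 0.15 (SE) with an adjusted p of 0.0325 in the edgeR refit. Corrected for length the edgeR value was 0.019, and corrected for GC content it was -0.015, both with an adjusted p of 1. The uncorrected edgeR fit passed only when WT replicate 1 was the library left out, and had adjusted p of 0.0510 to 0.0845 without any other.

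Per gene length, Ireb2 stood at 15.6 ± 3.31 FPKM in WT liver and 5.40 ± 1.37 in WT ileum (SD, n = 4), and at 21.2 ± 2.33 and 7.97 ± 0.828 in Khk KO. The organs did not overlap in either genotype. Fth1 was at 2809 ± 224 FPKM in WT liver and 1325 ± 282 in WT ileum (SD, n = 4), also without overlap. The sensing and receptor genes were thus expressed far below the storage genes in both organs.

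Fbxl5 encodes the iron sensor that limits IRP2. It is ENSMUSG00000039753, a 9740-base gene on the minus strand of chromosome 5 between 43744615 and 43821638, and it was listed in liver only. Its normalized counts were 384, 503, 472 and 438 in Khk KO and 529, 480.4, 704 and 579 in WT. The genotypes overlapped, because WT replicate 2 lay below Khk KO replicate 2. The mean was 449 ± 51.2 in Khk KO and 573 ± 96.1 in WT (SD, n = 4), 78.4% of the WT level. Fbxl5 had a log2 fold change of -0.35 with an adjusted p of 0.128 in the authors' deposited table and -0.32 ± 0.16 (SE) with an adjusted p of 0.212 in the edgeR refit. With 3.91 ± 0.465 FPKM in Khk KO and 5.06 ± 0.896 in WT (SD, n = 4) it was the lowest of the 5 genes in liver per length.

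Fold changes followed gene length across the tables, and the members fall at both ends. Over listed protein-coding genes averaging at least 50 normalized counts, Spearman's rho between the authors' log2 fold change and length was 0.77 in liver and 0.76 in ileum. It was 0.68 in jejunum and 0.57 in duodenum. These are correlations across genes, which are not independent replicates and were all selected on their p. Of such genes under 1500 bases, 480 of 485 in liver and 458 of 463 in ileum were lower in Khk KO, with median log2 fold changes of -0.77 and -0.64. Ftl1 and Fth1, both under 1500 bases by the lengths in the tables, were lower as well. Of genes between 9000 and 10000 bases, 176 of 190 in liver and 165 of 178 in ileum were higher, with medians of 0.71 and 0.55. Ncoa4 and Ireb2 were higher as well, at 0.40 and 0.46 in liver and 0.93 and 0.55 in ileum. Fbxl5, of nearly the same length, was among the 14 of 190 that were lower in liver.

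**Figure D3:**
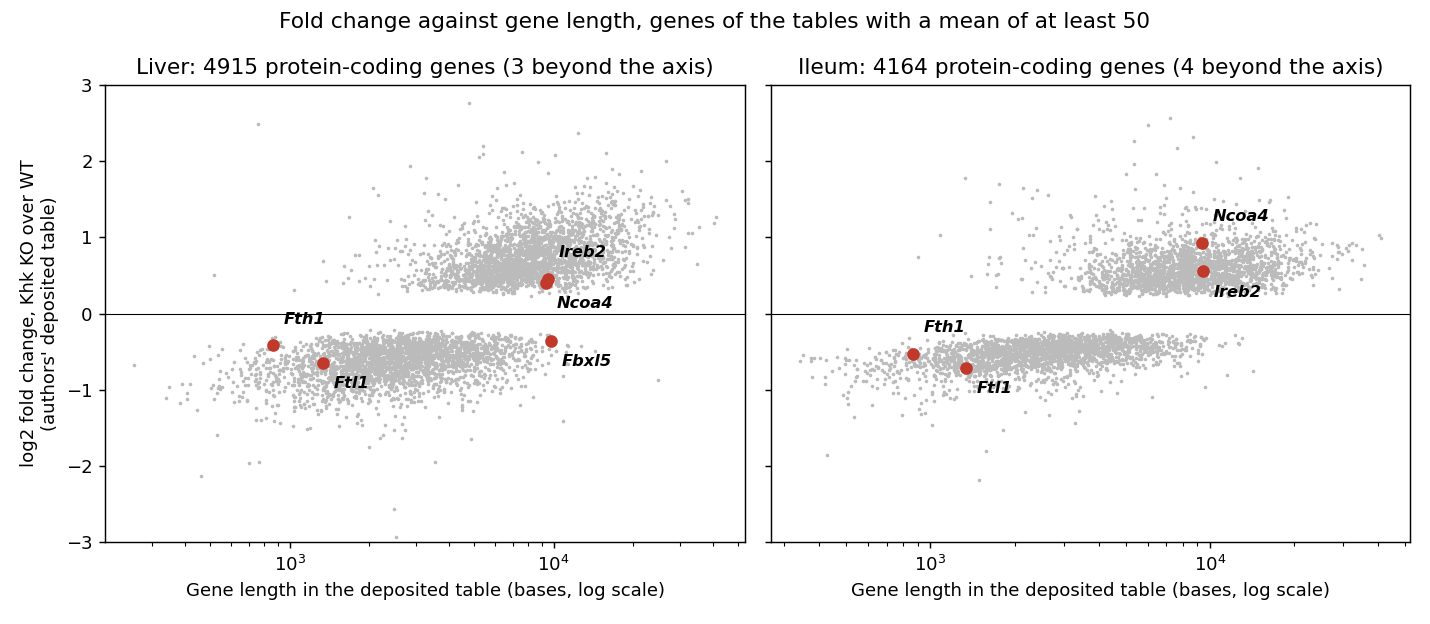
The authors' log2 fold change against gene length (log scale) for protein-coding genes of the liver and ileum tables, with the members in red. Genes near 0 are missing because the tables list only genes with p under 0.05; Ftl1 and Fth1 lie among the lower short genes, Ncoa4 and Ireb2 among the higher long genes, and Fbxl5 in liver lies below 0 among long genes.

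The trend could also be read in single libraries, as Spearman's rho between gene length and a library's deviation from the mean of its organ. In liver rho was 0.576 to 0.616 in Khk KO and -0.635 to -0.618 in WT replicates 2 to 4, while WT replicate 1 stood at 0.129. That library had the WT level nearest to Khk KO for Ftl1, Fth1, Ncoa4 and Ireb2. In ileum rho was 0.544 to 0.589 in Khk KO and -0.583 to -0.325 in WT. In jejunum it was 0.297 to 0.482 and -0.451 to -0.214, and in duodenum 0.141 to 0.378 and -0.386 to 0.077. In the 3 gut segments WT replicate 1 had the lowest rho and the highest Ftl1 count. The part of this trend in the members' values was not tested beyond taking it out, and a true genotype effect that tracks length would be taken out with it.

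**Figure D4:**
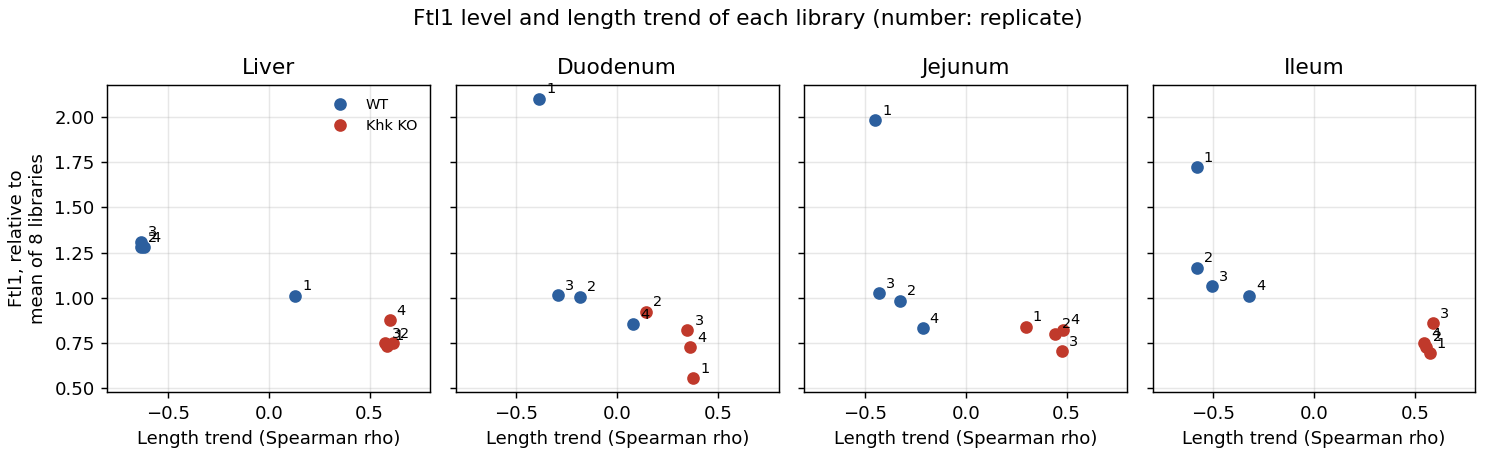
Normalized count of Ftl1 in each library divided by the mean of the 8 libraries of the organ, against the library's length trend, with WT in blue, Khk KO in red and replicate numbers beside the points. Libraries with the lowest rho hold the most Ftl1, WT replicate 1 of liver lies apart from the other WT libraries at 0.129, and WT replicate 1 of each gut segment is the highest point.

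The trend that was taken out was learned from listed genes only, all selected at an unadjusted p under 0.05, so it may be steeper than over all genes, and corrected values may overshoot. This holds for Fbxl5 in particular, whose uncorrected edgeR value was -0.32 with an adjusted p of 0.212. With the length trend taken out, 1 of the 5 members passed edgeR's threshold in liver, Fbxl5, where 4.31% of tested genes did so and 2.14% did so as lower. Its log2 fold change was -1.18 ± 0.23 (SE) with an adjusted p of 0.0194, and with the GC trend taken out it was -0.82 with an adjusted p of 0.0180. Fbxl5 remained lower in Khk KO in all 8 length-corrected fits that left out 1 library, from -1.35 to -0.88. The adjusted p of these edgeR fits ran from 0.00107 to 0.0665 and exceeded 0.05 without any 1 of the Khk KO libraries or WT replicate 4. In ileum no member passed after this correction (2.97% of tested genes did), and Ncoa4 had the lowest adjusted p of the 4 in edgeR, 0.133, and the only unadjusted p under 0.05 among them. None passed in jejunum (0.0101%), where Ncoa4 was again the only member with an unadjusted p under 0.05 in edgeR, or in duodenum (0.0128%), where Ftl1 was not.

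**Figure D5:**
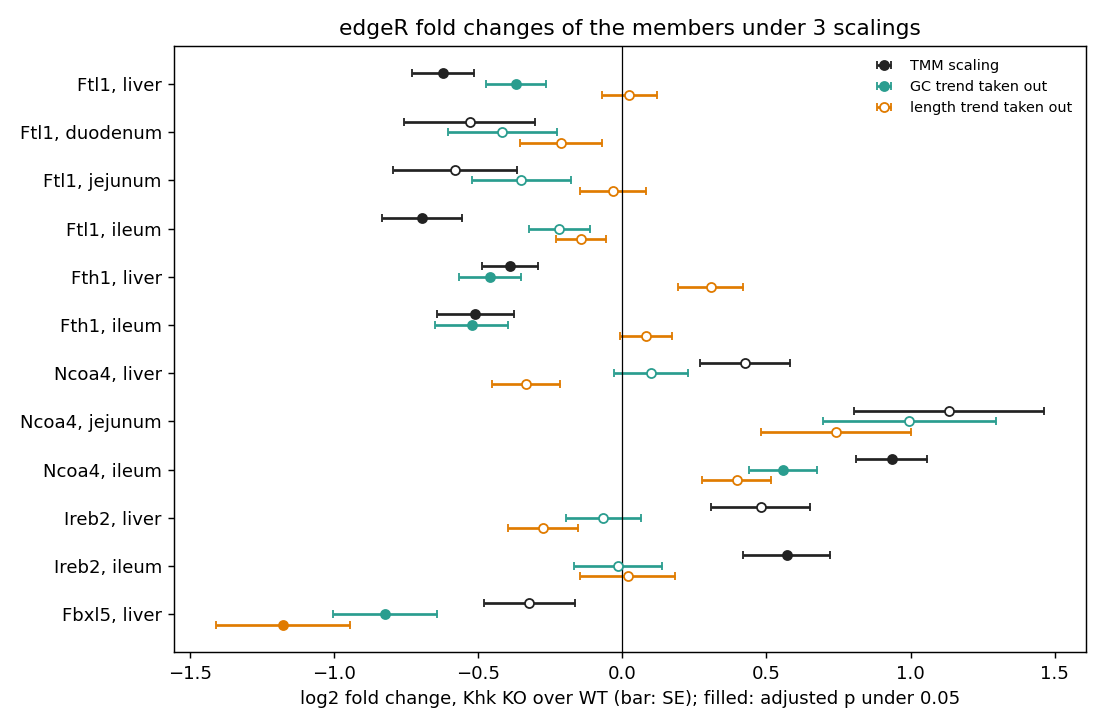
Fold change (log2, Khk KO against WT) with its SE for the 12 gene and organ combinations, from edgeR with TMM scaling (black), with the GC trend taken out (green) and with the length trend taken out (orange); filled points have an adjusted p under 0.05. The length correction moves Ftl1 and Fth1 up and Ncoa4, Ireb2 and Fbxl5 down, which changes the sign of Ftl1, Fth1, Ncoa4 and Ireb2 in liver and of Fth1 in ileum, and leaves Fbxl5 at -1.18; the GC correction changes the sign of Ireb2 in both organs.

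The effect of the deletion was compared between organs for the 11 pairs in which both tables list the gene, with edgeR's test of the interaction between genotype and organ. None passed an adjusted p of 0.05 in the uncorrected edgeR fit, the lowest being 0.304, and 2 of the 11 had an unadjusted p under 0.05, both for Ncoa4. For Ncoa4 the liver minus ileum difference was -0.57 ± 0.19 on the log2 scale (SE, edgeR adjusted p 0.304), and the liver minus jejunum difference was -0.80 ± 0.38 (SE, edgeR adjusted p 0.397). With the length trend taken out they were -0.73 ± 0.17 and -1.075 ± 0.29 (SE), with edgeR adjusted p of 0.0512 and 0.101. For Ftl1 the differences between organs ran from -0.13 (liver minus jejunum) to 0.29 (liver minus duodenum), with SE from 0.208 to 0.320. The liver minus duodenum value depends on the scaling. The separate organ fits, at -0.62 and -0.53, order the organs the other way, and the joint fit gave 0.068 with the authors' size factors and 0.12 without duodenum WT replicate 1. No order of the organs is read from it. For Fth1 and Ireb2 the liver minus ileum differences were 0.049 ± 0.188 and -0.15 ± 0.216. These tests use genes that both tables list, so the genes were already selected for an effect.

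Around the members, 46 other genes of the same machinery were taken from lists of iron-responsive transcripts, FBXL5 and iron-sulphur partners, ferritin loading and turnover, ferritin copies and ferritin transcription. The liver table listed 20 of them, and the authors called 7 higher and 10 lower in Khk KO, against 12.5% and 11.4% of all tested genes. The ileum table listed 12, with 4 called higher and 3 lower (8.76% and 6.86% of tested genes). None of the 8 listed in jejunum or the 3 in duodenum was called in the authors' table, and all had an unadjusted p under 0.05, as every listed gene does.

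The list of FBXL5 ligase and iron-sulphur genes had 7 of 8 members listed in liver, with 1 called higher and 4 lower, and 3 listed in ileum, with 1 called higher and 1 lower. Among them, Herc2, a ubiquitin ligase that targets NCOA4 and FBXL5, rose in the authors' table, and had a mean normalized count of 1161 ± 116 in Khk KO and 477 ± 254 in WT in liver (SD, n = 4). In ileum it had 1766 ± 153 and 1066 ± 82.4. The authors' deposited table gave log2 fold changes of 1.28 and 0.73 with adjusted p of 0.000174 and 4.6e-06. Herc2 is a 16175-base gene, and the length-corrected edgeR values were 0.37 and 0.037, with adjusted p of 0.169 and 1. Fam96b, which helps insert iron-sulphur clusters, is 1076 bases long and had -0.86 in liver and -0.55 in ileum in the authors' deposited table, with adjusted p of 0.00637 and 0.0274. Its length-corrected edgeR values were -0.12 and 0.032. Rbx1, Skp1a and Narfl of this list were also called lower in liver. Rbx1 had -0.51 with an adjusted p of 0.00946 in the authors' deposited table. In edgeR its adjusted p was 0.0472 uncorrected, and 0.0449 with a value of -0.54 after the length correction. The length-corrected edgeR values of Skp1a and Narfl were 0.047 and -0.33, and neither passed.

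Of 9 genes with an iron-responsive element or a second IRP, liver listed 5, of which the authors called 3 higher and 1 lower (Alas2, which makes haem in red cell precursors), and ileum listed 3, of which 2 were called higher. Tfrc, the transferrin receptor, had a log2 fold change of 0.83 in liver with an adjusted p of 0.00212. Cdc42bpa, a kinase whose transcript carries such an element, had 1.00 in liver and 0.62 in ileum, with adjusted p of 0.00418 and 0.00571 in the authors' deposited table. Slc40a1 had 0.70 in ileum with an adjusted p of 0.0178 in the authors' deposited table. Corrected for length, edgeR gave 0.41 for Tfrc, -0.059 and -0.14 for Cdc42bpa and 0.18 for Slc40a1, and none of these passed.

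Of 16 genes of ferritin loading, receptors and turnover, liver listed 6, with 2 called higher and 4 lower, and ileum listed 6, with 1 called higher and 2 lower. Map1lc3b, whose product coats the autophagosome, was called lower in both, and is 7517 bases long. Its log2 fold change in the authors' deposited table was -0.43 in liver and -0.40 in ileum, with adjusted p of 0.0308 and 0.0466. The uncorrected edgeR fit gave adjusted p of 0.0744 and 0.0349. The length-corrected edgeR values were -1.07 and -0.83 with adjusted p of 0.0190 and 0.00616. Mcoln1, a lysosomal ion channel, had -0.40 in ileum with an adjusted p of 0.0404 in the authors' deposited table. In edgeR its adjusted p was 0.0704 uncorrected, and 0.00393 with a value of -0.83 after the length correction. Gabarapl2, a relative of Map1lc3b, and Scara5, a ferritin receptor, had -1.03 and -0.86 in liver in the authors' deposited table, with adjusted p of 1.86e-05 and 0.0141. Their uncorrected edgeR adjusted p were 0.0181 and 0.0632. Their length-corrected edgeR values were -0.47 and -1.25, with adjusted p of 0.0451 and 0.0249. In ileum neither was called: Gabarapl2 had -0.40 and Scara5 had 0.97 in the authors' deposited table, with adjusted p of 0.152 and 0.158, and 0.064 and 0.68 after the length correction. The scaffold gene Rb1cc1 had 0.64 in ileum and Atg9a had 0.77 in liver in the authors' deposited table, with adjusted p of 0.00083 and 0.0160. They had -0.030 and 0.49 after the length correction in edgeR, and neither passed. As for Fbxl5, the corrected values of Map1lc3b, Mcoln1 and Scara5 may overshoot, because the trend was learned from selected genes.

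All listed erythroid markers had lower means in Khk KO in each of the 4 organs, as Ftl1 did. The listed macrophage markers had lower means in liver and ileum and went both ways in duodenum. The liver table listed 5 of 9 erythroid marker genes, all called lower by the authors (as were 11.4% of tested genes), with summed normalized counts of 2967 to 3515 in Khk KO and 4584 to 10959 in WT. It listed 4 of 10 macrophage markers, of which 3 were called lower, with sums of 2563 to 3958 in Khk KO and 3124 to 9251 in WT. In ileum 3 erythroid markers were listed and 2 called lower (6.86% of tested genes were), with sums of 177 to 363 in Khk KO and 376 to 737 in WT, and 2 macrophage markers were listed and none called. In jejunum and duodenum 4 erythroid markers were listed in each and none called, all with lower means in Khk KO. Their log2 fold changes in the authors' deposited table were -1.33 to -0.84 in jejunum and -1.63 to -0.89 in duodenum. Jejunum listed no macrophage marker. Duodenum listed 3, none called, whose sums were 210.2 to 222 in Khk KO and 118 to 200.04 in WT, without overlap and opposite in direction to Ftl1 there. Nearly all of that sum was Adgre1, at 213 ± 3.80 in Khk KO and 143 ± 53.5 in WT (SD, n = 4). Cd5l and Marco went the other way at very low counts, with overlap. Their means were 0.75 and 0.42 in Khk KO and 9.92 and 5.89 in WT. The longest of the erythroid and macrophage markers listed in liver and ileum was Clec4f, at 2471 bases, and none of those listed in liver was at 0 in a library mean. Nearly all listed protein-coding genes under 1500 bases were lower too, 480 of 485 in liver and 458 of 463 in ileum. The length-corrected edgeR value of Alas2 in liver was -0.09, and the other markers were not examined after that correction. In liver 4 of 5 listed hepatocyte markers were also called lower, with sums over the 5 of 315058 to 335534 in Khk KO and 350335 to 513334 in WT. The other, Cps1, was not called and was higher without overlap, at 68431 ± 6191 in Khk KO and 54123 ± 8317 in WT (SD, n = 4). Other marker lists also held lower means. In ileum the 3 enterocyte markers listed were lower (1 called), as were the 4 goblet or Paneth markers (2 called). Mzb1, a B or plasma cell marker, was also called lower there. The 4 smooth muscle markers listed in jejunum were lower, none called. Means were higher for Sis, Clca1 and Mzb1 in duodenum, Sis and Alpi in jejunum, and Muc2 and Myh11 in liver. In ileum Cps1 was called higher, without overlap, at 7966 ± 360 in Khk KO and 5500 ± 1246 in WT (SD, n = 4). The other hepatocyte markers listed in ileum, Apoa1 and Cyp2e1, had lower means. The part of these cell types in the ferritin result was not tested. In such bulk samples fewer cells of a type and less RNA per cell cannot be told apart.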

How the data were processed

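Polyadenylated RNA of 32 libraries was sequenced by the authors. Per the submitters' processing notes, reads were handled with HISAT2 2.0.5 on GRCm38 (mm10); the counting tool and test are not given in the sources used here. The labels allow for a stranded or an unstranded kit, so strandedness is unknown. The authors deposited 1 table per organ with read counts, normalized signal (counts divided by 1 size factor per library), FPKM, log2 fold changes, p-values and adjusted p-values. The ranks of the deposited p-values show adjustment over 18225 liver, 16034 ileum, 15615 duodenum and 9881 jejunum genes.

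The counts were refitted for each organ with edgeR 4.0.16 in R 4.3.3 (TMM scaling, filterByExpr, quasi-likelihood F test), adjusted by Benjamini and Hochberg over those numbers of genes, because the tables hold only listed genes. Library sizes were those implied by FPKM. In duodenum these equal the size factor times 20544684 in all 8 libraries, so they are scaled totals there and not depths, and whether they are depths in the other organs is not known. The SE is the fold change over the square root of F. Trends with gene length or GC content (99.8% to 100% of genes had a value) were lowess curves (span 0.5) for each library, using genes that average at least 10 normalized counts, taken out with the authors' size factors. Other fits used DESeq2 1.42.0 and each set without 1 library. Other steps ran in Python 3.11.15 (scipy 1.17.1, pandas 2.3.3, numpy 2.4.6, matplotlib 3.10.9), and the fits were tested on simulated data.

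The members and gene lists were chosen with earlier results of these data known. All 5 members were named wherever listed. From the pathway lists, the rule named up to 8 genes per organ past the authors' threshold, by size of log2 fold change, and the 3 protein-coding genes most like each member. Some genes were given outside this rule, among them Map1lc3b, Alas2, Rbx1, Skp1a and Narfl in liver. Marker lists of hepatocytes, enterocytes, goblet or Paneth cells, macrophages, erythroid cells, smooth muscle, pancreas acinar cells and B or plasma cells were used.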

Additional observations from a re-analysis of the deposited data

Results flagged for a closer look

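The members' counts and the ratio of Ftl1 to Fth1 formed 28 groups of 4 libraries. Of these, 7 held a library whose gap to the others was unusually large for the group's range. Chance gives about 1 in 20 for independent groups. These groups share libraries and genes that move together, so 7 of 28 is not read as an excess. In liver, Ftl1 was highest in Khk KO replicate 4, at 25510.3 normalized counts against 21443 to 21853 in the others. It was lowest in WT replicate 1, at 29431 against 37241 to 38121. Ireb2 showed the opposite in the same libraries, at 1994 in Khk KO replicate 4 against 2454 to 2514, and at 2316 in WT replicate 1 against 1525 to 1534. WT replicate 1 held the highest Ftl1 in duodenum, at 52724 against 21448 to 25469.6, and in jejunum, at 17874 against 7524 to 9265. Ncoa4 was highest in Khk KO replicate 4 of jejunum, at 3121 against 1447 to 1578.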

How the results depend on the processing

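Members past the threshold of edgeR's quasi-likelihood test numbered 2 in liver, 4 in ileum and 0 in duodenum and jejunum. In liver this became 4 with DESeq2 and 1 with the length trend taken out. Of 18225 genes these fits called 4411 and 786, against 2675 in the uncorrected edgeR fit. The member count ranged from 0 to 4 when 1 library was left out. It was 4 without WT replicate 1 (4860 genes called). It was 0 without Khk KO replicate 1 (47 genes), Khk KO replicate 2 (9) or WT replicate 4 (14). In liver the member count thus rose and fell with the calls over all genes when 1 library was left out. It did not do so in every fit. With the GC trend taken out Ftl1, Fth1 and Fbxl5 passed, while the calls over all genes fell to 2414. In jejunum DESeq2 gave 1 (347 of 9881 genes). In ileum the authors' size factors gave 2 (1584 of 16034 genes, against 2221 uncorrected). The GC correction gave 2 (935 genes) and the length correction 0 (476). Fits without 1 library gave 1 to 4, the lowest without Khk KO replicate 1 (663 genes). The sign turned with the length correction for Ftl1 (0.025), Fth1 (0.31), Ncoa4 (-0.33) and Ireb2 (-0.28) in liver and Fth1 (0.083) in ileum, and with the GC correction for Ireb2 in liver (-0.065) and ileum (-0.015). Length-corrected fits without 1 library, chosen after seeing the data, turned the sign of small values for Ftl1 in liver (-0.041 to 0.065) and jejunum (-0.098 to 0.045), and for Ireb2 in ileum (-0.092 to 0.23). The liver ratio of Ftl1 to Fth1 ranged from -0.27 to -0.20 with 1 library left out, where an exact permutation p cannot go below 0.0571.

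Between-organ differences of Ftl1 changed sign with the length correction for liver minus jejunum (0.057), liver minus ileum (0.17) and duodenum minus ileum (-0.070), and with the authors' size factors for liver minus ileum (0.063) and duodenum minus ileum (-0.0050). Liver minus duodenum (0.29) kept its sign, falling to 0.068 with the authors' size factors and to 0.12 without duodenum WT replicate 1. Without 1 library they ranged from -0.44 to 0.0020 (liver minus jejunum), -0.17 to 0.064 (liver minus ileum), -0.27 to 0.22 (duodenum minus jejunum), -0.012 to 0.17 (duodenum minus ileum) and -0.035 to 0.48 (jejunum minus ileum), and from -0.096 to 0.12 for Fth1 (liver minus ileum) and -0.13 to 0.36 for Ncoa4 (jejunum minus ileum). The cause of these changes was not tested.

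Same-numbered libraries of the genotypes did not deviate together in every pair. Their correlations were -0.12 to 0.096 (liver), -0.29 to 0.24 (duodenum), 0.011 to 0.32 (jejunum) and -0.19 to 0.023 (ileum). The labels do not say what a shared number marks, and these correlations cannot decide it. A fit with the replicate number as a block called 2 members in liver and 3 in ileum, among 2156 and 1202 genes called. In that fit Fth1 had -0.50 in ileum with an edgeR adjusted p of 0.0812. Of the alternative fold changes of single members, 124 kept their direction and side of the threshold, 7 turned, 7 came to pass and 30 no longer passed.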

Other observations

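The genes whose levels followed each member most closely, over libraries centred on the mean of their organ, are given as descriptions that share the genotype difference and the length trend. For Ftl1 over 32 libraries they were Tmem205, Arf5 and Fau, with Pearson's r of 0.97, 0.97 and 0.96 among 200 genes. For Fth1 over 16 libraries of liver and ileum they were Ndufs8, Bcap31 and Stard10 (0.98 each) among 2354 genes, and its r with Ftl1 was 0.97. For Ncoa4 over 24 libraries they were Pdpr, Trappc8 and Pik3c2a (0.88, 0.87 and 0.87) among 820 genes. For Ireb2 over 16 libraries they were Prkci, Snx13 and Kif5b (0.97 each) among 2354 genes, and its r with Ncoa4 was 0.81. For Fbxl5 over 8 liver libraries they were Yeats4, Anxa2 and Actr1a (0.98, 0.97 and 0.97) among 4564 genes.

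Centred on the mean of each genotype and organ instead, Fth1 and Ftl1 had an r of 0.92, and Ireb2 and Ncoa4 had 0.54. Of the inverse relations between storage and sensing genes over both genotypes, 3 turned sign within genotype. Fth1 and Ncoa4 went from -0.66 to 0.27, Fth1 and Ireb2 from -0.52 to 0.28, and Ireb2 and Ftl1 from -0.60 to 0.17. Ncoa4 and Ftl1 went from -0.69 to -0.31, and Fbxl5 with Ncoa4 and Ireb2 in liver from -0.64 and -0.62 to -0.24 and -0.19.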
